A study of Mus musculus with 54 samples.

Results

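RNA of sorted WT naive CD4+ T cells was compared between 20 h and 4 h of stimulation through the TCR and CD28. The comparison used 6 of the 54 RNA-sequencing libraries of the series, which the labels give as 3 biological replicates of WT cells at 4 h and 3 at 20 h. They belong to the LAT experiment, whose 18 libraries also hold WT cells at 0 h and Lat-/- cells at 0 h, 4 h, and 20 h. The remaining 36 libraries come from cells enriched with magnetic beads rather than sorted, and the WT cells among them were used below as a second source of the same times. These enriched WT cells came from pooled lymph nodes and spleens of WT mice, also of 8 to 10 wk and on the C57BL/6 background. WT and Lat-/- cells were both sorted from pooled lymph nodes and spleens of Lat fl-dtr maT-Cre mice of 8 to 10 wk on the C57BL/6 background, WT cells as human DTR+ and Lat-/- cells as human DTR-. All sorted groups, the WT cells included, therefore come from mice with the Lat fl-dtr allele and the Cre transgene, whose promoter is not given in the sources used here. Stimulated groups received plate-bound anti-CD3 at 3 µg/ml and soluble anti-CD28 at 1 µg/ml, and cells at 0 h were lysed right after purification.

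Engagement of the TCR activates kinases that phosphorylate the adaptor LAT, from which calcium, ERK, and NF-kappaB signals reach the nucleus. Immediate early factors such as the EGR, AP-1, and NR4A families are transcribed within minutes to hours without new protein synthesis, and cytokine and costimulatory genes follow. A naive T cell then leaves quiescence, grows, and enters S phase about a day after stimulation, so that 4 h lies before and 20 h near the start of DNA synthesis.

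The 4 h libraries held 24022430 to 28501095 counts and the 20 h libraries 21495317 to 26705151, so that a floor of 3 counts corresponds to 0.105 to 0.140 CPM (counts scaled by library size and TMM factors, the latter at 0.876 to 0.930 at 4 h and 1.02 to 1.05 at 20 h). Replicates were similar but not equally so. Pearson's r of log2 CPM across genes was 0.995 between 4 h replicates 1 and 2, 0.986 between either of them and 4 h replicate 3, and 0.995 to 0.997 at 20 h. At 4 h, replicate 3 had the highest value of the 3 for 5155 of 12461 genes averaging 10 counts or more and the lowest for 4680, and where it stands apart for a gene group this is said beside the result. Summed T cell markers (12 genes, among them Cd3e and Cd4) went from 10222 to 10321 CPM at 4 h to 4961 to 5628 CPM at 20 h. Markers of other cells were low: the B cell list summed to 101 to 207 CPM at 4 h and 318 to 370 CPM at 20 h, nearly all of it Ighm (119 ± 59.4 to 315 ± 23.2 CPM), and Ms4a1, Pax5, and Blnk had no read at either time. Among low B cell genes, H2-Aa stood at 3.51, 3.8, and 3.81 CPM at 4 h and 0.0428, 0.258, and 0.309 CPM at 20 h and Cd79b at 0.421, 0.275, and 0.377 CPM at 4 h and 2.74, 3.72, and 3.23 CPM at 20 h. The sums were 63.9 to 81.1 and 68.8 to 70.4 CPM for 11 myeloid genes (mostly Cst3, with Csf3r at 0 and Itgax the lowest fold change of the called members), 16.9 to 22.0 and 12.4 to 13.8 CPM for Cd8a and Cd8b1, 5.47 to 8.18 and 9.10 to 10.9 CPM for 5 NK cell genes (mostly Eomes, with Ncr1 at 0 to 0.916 CPM), 16.1 to 22.6 and 6.42 to 7.48 CPM for 5 gamma delta T cell genes (mostly Trdc), and at most 2.07 CPM for 7 genes of red cells and platelets, of which Hbb-bs had no read at 20 h. Although the CD8 sum fell, Cd8a was called higher at 20 h (log2 fold change 3.30 over all genes with at least 1 read), and Cd8b1 was not called (-0.70). The part of these other cells in the results below was not tested. In bulk RNA, fewer cells of a type and less RNA per cell cannot be told apart.

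Of 27780 genes with at least 1 read, 2195 (7.9%) were higher and 2589 (9.32%) lower at 20 h than at 4 h, called where the fold exceeded 2 and the adjusted p lay below 0.05 (edgeR's quasi-likelihood test, Benjamini-Hochberg). With libraries scaled by their totals instead of TMM factors, the calls were 2722 higher and 2075 lower (56.7% of calls higher, against 45.9%), and the median log2 fold change of genes averaging 10 counts or more was 0.17 instead of -0.04. Among the 12461 genes averaging 10 counts or more, 1976 (15.9%) were higher and 2035 (16.3%) lower, and the counts in gene lists below can be read against these shares. Protein-coding genes were called in both directions at similar rates (2002 higher and 1741 lower of 15452), whereas long noncoding RNA genes were mostly lower (83 higher and 413 lower of 3646), as were genes of the annotation's uncertain TEC class (10 higher and 185 lower of 1418). Median log2 fold changes were 1.92 among genes called higher and -1.99 among genes called lower. Counts of calls in gene lists come from this fit. It estimated an infinite prior df, that is, 1 common spread about the trend for all genes, and therefore log2 fold changes, SEs, and adjusted p of single genes below come from the same edgeR test restricted to 13928 genes kept by edgeR's filterByExpr, in which each gene's own spread enters. In that fit 2002 of the 2195 and 2311 of the 2589 genes were called too.

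**Figure D1:**
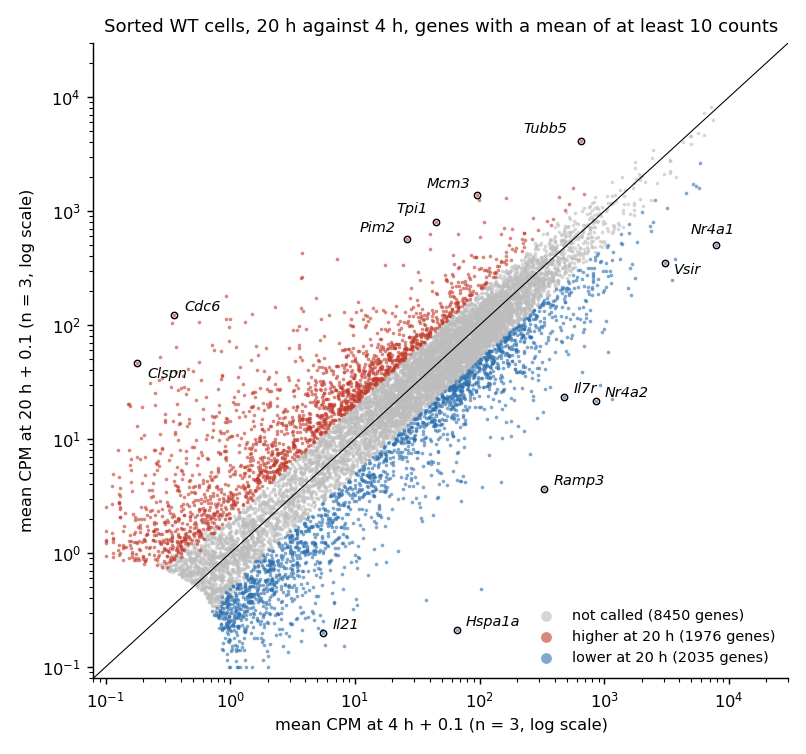
Mean CPM of the 3 sorted WT libraries at 4 h (x) against that of the 3 at 20 h (y), each plus 0.1 on log scales, for the 12461 genes averaging 10 counts or more, each point a gene and the line equality. The 1976 genes called higher lie above the line, with Tubb5 and Mcm3 among the abundant ones, and the 2035 called lower lie below it, with Nr4a1 and Vsir among the abundant ones.

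Gene groups separated by function. DNA replication and mitosis rose almost as whole lists, and the immediate early list fell almost as a whole. Cytokines, NF-kappaB genes, homing receptors, quiescence factors, and components of TCR signaling fell in part. Glycolysis, cholesterol synthesis, and one-carbon metabolism rose in part, and ribosome biogenesis did not hold a single called gene. The lists were chosen with earlier results of these data known, and their counts are descriptions.

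**Figure D2:**
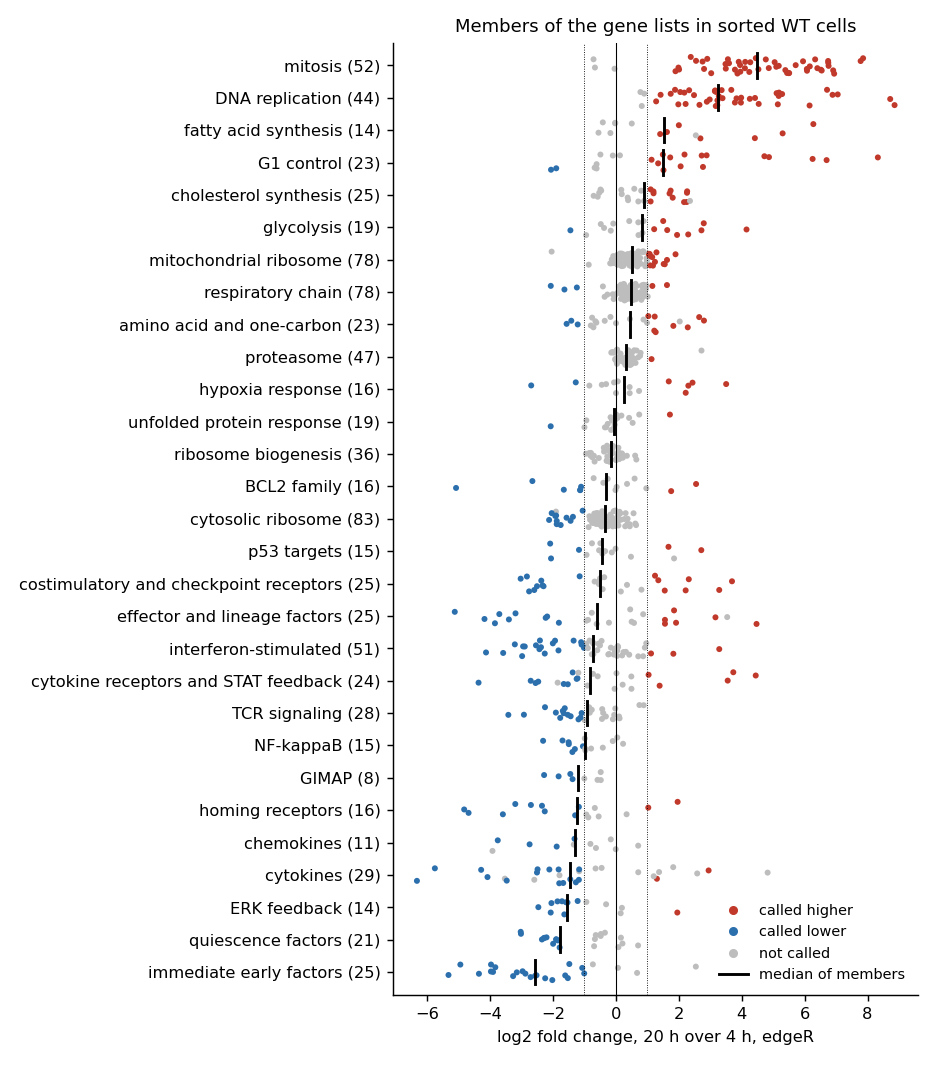
Log2 fold change of sorted WT cells, 20 h over 4 h (x), of the members of each gene list (y), each point a gene colored by call, the bar its list's median, and the dotted lines a fold of 2. The medians run from 4.49 for mitosis to -2.56 for immediate early factors, with ribosome biogenesis at -0.16.

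Immediate early factors had the lowest median of the 29 lists other than the marker lists. Of 25 genes tested, 21 were lower at 20 h and 0 higher, with a median log2 fold change of -2.56, and their summed level went from 18075 to 22965 CPM at 4 h to 2390 to 2731 CPM at 20 h. Nr4a1, an orphan nuclear receptor gene induced by TCR signals, stood at 8539, 8646, and 6426 CPM at 4 h and 506, 519.9, and 484 CPM at 20 h (log2 fold change -3.99, SE 0.56, adjusted p = 7.35e-06). Its relative Nr4a2 had the lowest fold change of the list, with 822, 1004, and 738 CPM at 4 h and 18.4, 20.2, and 25.8 CPM at 20 h (log2 fold change -5.33, SE 0.39, adjusted p = 2.26e-09). The groups did not overlap for either gene, and 4 h replicate 3 was the lowest of its group for both. Fosl2, an AP-1 subunit, fell from 919 ± 177 to 30.0 ± 0.589 CPM, and Egr2, a zinc finger factor tied to TCR strength, from 15.9 ± 1.75 to 2.04 ± 0.33 CPM. Atf3, a stress-responsive bZIP factor, fell from 42.0 ± 6.46 to 2.05 ± 0.55 CPM, and Btg2, an antiproliferative gene, from 1036 ± 66.7 to 108 ± 5.29 CPM. Fos and Jun were already lower at 4 h than in unstimulated cells: Fos stood at 432 ± 146 CPM at 0 h, 150.2 ± 11.2 CPM at 4 h, and 10.0 ± 1.07 CPM at 20 h. Jund, Egr4, Ier3, and Srf were not called. Egr4 held 2.9, 2.47, and 3.28 CPM at 4 h and 3.04, 3.61, and 2.43 CPM at 20 h, and Jund, at 0 reads in all 4 h libraries, was too low to compare.

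Feedback inhibitors of ERK signaling declined with them, with 9 of 14 lower, 1 higher, and a median of -1.56. Spry1, a Sprouty inhibitor of RAS-ERK signaling, went from 699 ± 117 to 167 ± 18.7 CPM (log2 fold change -2.09, SE 0.48, adjusted p = 0.0011), and Dusp2, a nuclear ERK phosphatase, from 1136 ± 111 to 276 ± 3.08 CPM (log2 fold change -2.06, SE 0.18, adjusted p = 1.64e-08). Dusp1, a phosphatase of stress and ERK kinases, had the largest fall of the list at -2.48 (SE 0.34) on the log2 scale. Not every member fell. Dusp4, another phosphatase of ERK, held 113, 146, and 111 CPM at 4 h and 139, 131, and 142 CPM at 20 h, and Dusp14 was the only member called higher, with 0.794, 1.05, and 1.74 CPM at 4 h and 3.68, 5.16, and 5.21 CPM at 20 h (log2 fold change 1.94, SE 0.40, adjusted p = 0.000381).

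Among 15 genes of the NF-kappaB pathway, 7 were lower, 0 were higher, and the median was -0.98. Rel, the subunit c-Rel, fell from 924 ± 190.3 to 356 ± 14.0 CPM (log2 fold change -1.40, SE 0.20, adjusted p = 9.42e-06), and Nfkb1, the precursor of p50, from 2019 ± 393 to 979.9 ± 52.8 CPM (log2 fold change -1.06, SE 0.15, adjusted p = 6.22e-06), which lay near a fold of 2 and was not called with DESeq2, with library totals, or without 4 h replicate 1 or 2. Nfkbiz, a nuclear IkappaB protein, had the lowest value, at 57.7, 51.5, and 54.8 CPM at 4 h and 9.67, 10.5, and 12.9 CPM at 20 h (log2 fold change -2.33, SE 0.46, adjusted p = 0.000257). Nfkb2 and Nfkbie, by comparison, had log2 fold changes of -0.43 (SE 0.17) and 0.03 (SE 0.12) and were not called.

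Of 29 cytokine genes tested, 15 were lower (13 of them also in the filtered fit) and 2 higher, with a median of -1.44. Cd40lg, the CD40 ligand with which helper T cells license B cells, stood at 976, 1011, and 873 CPM at 4 h and 84.7, 95.4, and 79.0 CPM at 20 h (log2 fold change -3.49, SE 0.14, adjusted p = 2.23e-12). Tnf stood at 756, 583, and 574 CPM at 4 h and 104, 116, and 117 CPM at 20 h (log2 fold change -2.52, SE 0.42, adjusted p = 5.47e-05). The 3 libraries of each time lay well apart for both genes, with every 4 h value above every 20 h value. Fasl, the death receptor ligand, dropped from 179 ± 24.2 to 10.6 ± 1.7 CPM, Tnfsf14 (LIGHT) from 207 ± 14.8 to 47.9 ± 6.25 CPM, and Ltb, lymphotoxin beta, from 1334 ± 226 to 379 ± 17.0 CPM. Il21, a cytokine of helper cells for germinal centers, changed by -5.77 (SE 0.76, adjusted p = 3.57e-06) on the log2 scale, from a low level of 3.74, 4.99, and 7.66 CPM at 4 h. Il2, the T cell growth factor, went the other way, with 31.4, 30.3, and 25.5 CPM at 4 h and 51.5, 67.3, and 97.0 CPM at 20 h (log2 fold change 1.29, SE 0.42, adjusted p = 0.0138). Its 20 h libraries were all above the 4 h libraries, with replicate 3 at 20 h the highest, and it had been at 0.201 ± 0.169 CPM in unstimulated cells. The other gene called higher was Ebi3, a subunit of IL-27 and IL-35, at 0.0467, 0.0916, and 0.113 CPM at 4 h and 1.03, 0.442, and 0.619 CPM at 20 h (not called without 20 h replicate 1, adjusted p = 0.0814). With DESeq2, Il2 was not called (adjusted p = 0.117). In a fit of the compared groups alone 5 cytokines were called higher, with Csf2, Il13, and Il9 added. Helper lineage cytokines were near the floor. Il4 stood at 0.467, 0.55, and 1.51 CPM at 4 h and 0.0856, 0.258, and 0.0884 CPM at 20 h, Il17a at 0.0467, 0.0458, and 1.13 CPM at 4 h with no read at 20 h, and Ifng at 0.841, 0.962, and 0.792 CPM at 4 h and 0.257, 0.295, and 0.177 CPM at 20 h, which was called in the fit over all genes but not in the filtered fit (adjusted p = 0.109). Il3 was split among the 20 h libraries, at 0.0428, 0.221, and 1.33 CPM, and was not called. Without 4 h replicate 3, Il4 and Il17a were not called.

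Chemokines were fewer. Of 11 tested, 4 were lower (3 also in the filtered fit) and 0 higher, with a median of -1.31. Xcl1, lymphotactin, stood at 266, 211, and 206 CPM at 4 h and 48.4, 56.1, and 171 CPM at 20 h (log2 fold change -1.32, SE 0.53, adjusted p = 0.0377), with 20 h replicate 3 nearer to the 4 h libraries. DESeq2 called 2 chemokines lower, without Xcl1 (adjusted p = 0.119) and Ccl20 (adjusted p = 0.0786), and Ccl20 was not called without 4 h replicate 3, 20 h replicate 2, or 20 h replicate 3 either. Ccl5 fell from 8.62 ± 2.43 to 1.28 ± 0.113 CPM, and Cxcl10, which had the lowest fold change, from 1.36 ± 0.159 to 0.1 ± 0.105 CPM. Ccl3 and Ccl4, induced chemokines, kept levels of 18.8, 15.0, and 18.3 CPM at 4 h and 10.7, 14.2, and 21.9 CPM at 20 h and of 133, 93.1, and 138 CPM at 4 h and 54.8, 66.8, and 114 CPM at 20 h, and neither was called.

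**Figure D3:**
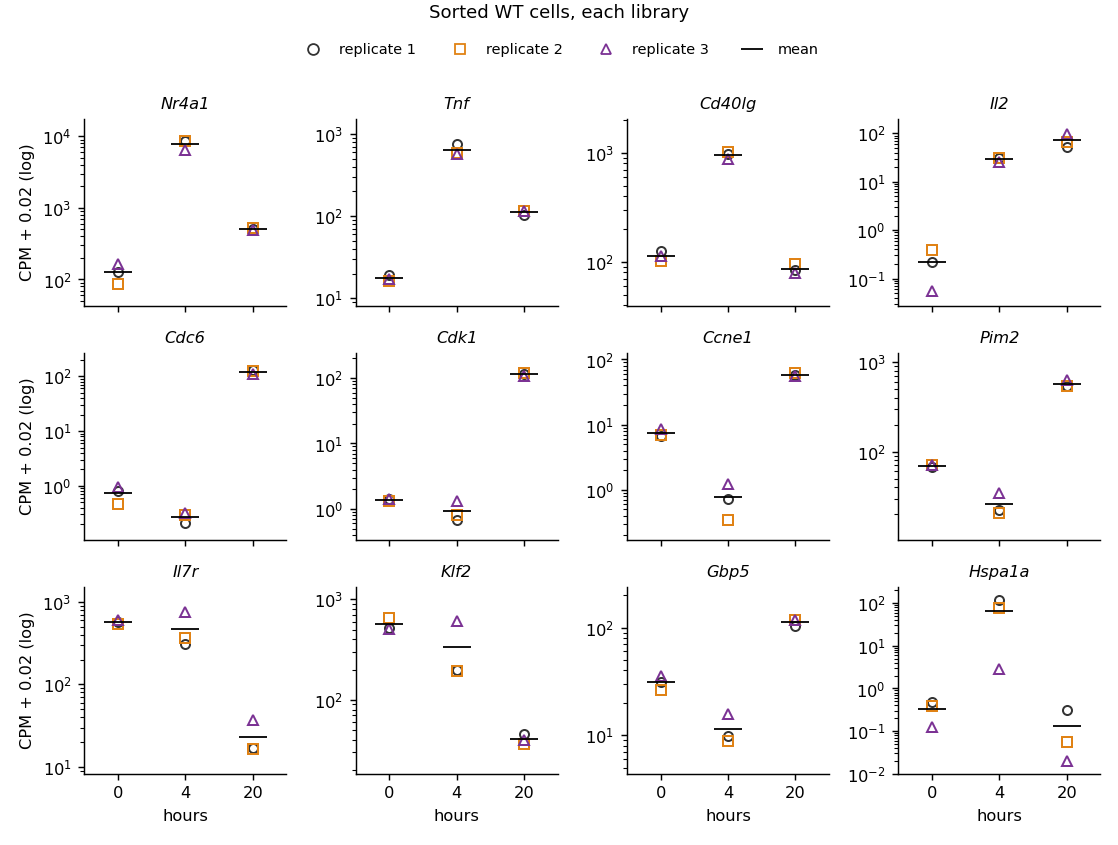
CPM plus 0.02 (y, log scale) of 12 genes in each sorted WT library at 0 h, 4 h, and 20 h (x), with a symbol for each replicate and a bar for the mean of 3. Nr4a1, Tnf, and Cd40lg were highest at 4 h, Il2, Cdc6, Cdk1, Ccne1, Pim2, and Gbp5 highest at 20 h, and 4 h replicate 3 stood above the other 4 h libraries for Il7r and Klf2 and below them for Hspa1a.

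DNA replication genes showed the opposite course. Of 44 tested, 41 were higher at 20 h and 0 lower, with a median log2 fold change of 3.25, and their summed level went from 1804 to 1957 CPM to 12088 to 13467 CPM. Cdc6, which loads the MCM helicase at origins, had the highest fold change of the list, with 0.187, 0.275, and 0.302 CPM at 4 h and 131, 126, and 109 CPM at 20 h (log2 fold change 8.84, SE 0.57, adjusted p = 4.34e-10). Mcm10, which helps to activate the helicase, followed with 0.14, 0.275, and 0.302 CPM at 4 h and 109, 117, and 88.6 CPM at 20 h (log2 fold change 8.70, SE 0.65, adjusted p = 2.95e-09). Both were close to the floor of counts in every 4 h library and above 80 CPM in every 20 h library. The subunits of the MCM helicase itself were already present at 4 h and rose to higher levels: Mcm3 went from 95.9 ± 5.84 to 1371 ± 98.9 CPM (log2 fold change 3.82, SE 0.19, adjusted p = 1.87e-11), Mcm5 from 98.0 ± 7.44 to 1249 ± 44.8 CPM, and Mcm6 from 164 ± 6.62 to 1299.9 ± 59.7 CPM. Mcm2 rose least of these, at 2.16 (SE 0.12) on the log2 scale. Rrm2, a subunit of ribonucleotide reductase, rose from 3.66 ± 1.44 to 264 ± 17.7 CPM, and Tyms, thymidylate synthase, from 3.95 ± 0.903 to 91.8 ± 3.65 CPM. Uhrf1, which brings DNA methyltransferase to replicating DNA, rose by 6.87 (SE 0.47, adjusted p = 8.59e-10) on the log2 scale. The 3 members that were not called were Cdt1, Pcna, and Pold2. Pcna, the sliding clamp, stood at 117 ± 10.1 CPM at 0 h, 281 ± 3.67 CPM at 4 h, and 498 ± 4.16 CPM at 20 h, so that its change between the later times was 0.81 (SE 0.14, adjusted p = 6.17e-05).

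Mitotic genes had the highest median of all lists, 4.49, with 49 of 52 genes higher and 0 lower, and their sums went from 351 to 654 CPM at 4 h to 1971 to 2383 CPM at 20 h. Cdk1, the kinase that drives entry into mitosis, stood at 0.654, 0.779, and 1.28 CPM at 4 h and 115, 119, and 107 CPM at 20 h (log2 fold change 6.92, SE 0.29, adjusted p = 3.04e-12). Bub1, a spindle checkpoint kinase, had the highest fold change, at 0.0467, 0.183, and 0.151 CPM at 4 h and 32.4, 32.6, and 28.5 CPM at 20 h (log2 fold change 7.84, SE 0.54, adjusted p = 1.05e-09). For most mitotic genes 4 h replicate 3 was the highest of its group (39 of 52 genes), yet without that library the counts were the same, 49 higher and 0 lower, with a median of 4.89. Levels at 20 h differed widely within the list. Top2a, topoisomerase II alpha, reached 259 ± 39.9 CPM and Ccna2, the cyclin of S phase and G2, 95.5 ± 13.3 CPM. Mki67, the proliferation marker, reached 15.0 ± 7.00 CPM, Ccnb1, the mitotic cyclin, 7.94 ± 0.787 CPM, and Cenpf, a kinetochore protein of G2 and mitosis, 4.01 ± 1.18 CPM. Cenpa, Pttg1, and Smc4 were the members not called, and Cenpa, the centromeric histone, had 20.0, 22.7, and 45.1 CPM at 4 h and 18.5, 17.8, and 19.4 CPM at 20 h.

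Of 23 genes that control G1, 15 were higher and 2 lower, with a median of 1.52. Ccne1, cyclin E1, rose from 0.743 ± 0.445 to 58.7 ± 3.2 CPM (log2 fold change 6.24, SE 0.31, adjusted p = 1.87e-11), and E2f1, the S phase transcription factor, from 3.06 ± 0.777 to 90.2 ± 5.62 CPM (log2 fold change 4.85, SE 0.27, adjusted p = 7.2e-11). The atypical repressor E2f8 had 0, 0.0458, and 0.113 CPM at 4 h and 23.1, 22.7, and 14.4 CPM at 20 h, with at most 3 reads in a 4 h library, and its relative E2f7 rose from 0.0611 ± 0.106 to 6.58 ± 0.872 CPM. Cyclins of early G1 did not move alike. Ccnd2, cyclin D2, was high at both times (1689.5 ± 204 and 1584 ± 110.5 CPM) after 602 ± 44.2 CPM at 0 h, and Ccnd3 rose from 62.2 ± 15.5 to 176 ± 7.99 CPM (log2 fold change 1.48, SE 0.15, adjusted p = 9.76e-08). The 2 genes that fell were inhibitors of cyclin-dependent kinases. Cdkn1a, p21, went from 0.232 ± 0.0503 CPM at 0 h to 104, 96.3, and 99.0 CPM at 4 h and 23.6, 25.0, and 23.2 CPM at 20 h (log2 fold change -2.08, SE 0.22, adjusted p = 3.28e-07). Cdkn1b, p27, fell from 74.3, 71.4, and 173 CPM to 26.4, 28.8, and 30.7 CPM (log2 fold change -1.91, SE 0.25, adjusted p = 3e-06), and its 4 h replicate 3 was the highest.

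Promoters were searched for letters bound by factors of these gene groups, and those shown were chosen among members that hold a match. RefSeq promoters of GRCm38.p6 (250 bases before to 50 bases after a start) could be matched to 7888 of 10762 protein-coding genes averaging 10 counts or more, at most 1000 bases from the annotated start, and were searched on both strands. E2F factors, which drive S phase genes, bind the letters TTTGGCGC, TTTCCCGC, TTTGCCGC, and TTTCGCGC, which occurred in 4.67% of all promoters, 7.60% of those of genes called higher, and 2.63% of those of genes called lower. They occurred in 13 of 37 promoters of DNA replication genes (35.1%) and in 6 of 17 of G1 genes (35.3%). The cell cycle homology region (CHR) TTTGAA, which the DREAM complex binds in mitotic genes, occurred in 11.3% of all promoters and 29 of 41 of mitotic genes (70.7%), and CCAAT, bound by NF-Y, in 40.0% and 73.2%. The promoters of Cdc6 and Cdk1 are shown because these genes had the largest changes among called members averaging 50 counts or more that hold an E2F or a CHR match. Cdc6 lies at chr11:98907901-98908200 on the plus strand, with its start 350 bases from that of the annotation, and the capitals mark an E2F match on the minus strand (138 bases before the start). Cdk1 lies at chr10:69352863-69353162 on the minus strand, and the capitals mark 2 CHR and 3 CCAAT matches, the latter read as ATTGG on the strand shown.
Cdc6: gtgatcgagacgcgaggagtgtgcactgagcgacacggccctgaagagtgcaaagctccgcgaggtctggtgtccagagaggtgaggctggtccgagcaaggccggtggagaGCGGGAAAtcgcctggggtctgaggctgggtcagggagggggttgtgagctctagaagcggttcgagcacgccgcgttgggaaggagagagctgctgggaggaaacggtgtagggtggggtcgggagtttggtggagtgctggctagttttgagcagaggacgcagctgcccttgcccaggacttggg
Cdk1: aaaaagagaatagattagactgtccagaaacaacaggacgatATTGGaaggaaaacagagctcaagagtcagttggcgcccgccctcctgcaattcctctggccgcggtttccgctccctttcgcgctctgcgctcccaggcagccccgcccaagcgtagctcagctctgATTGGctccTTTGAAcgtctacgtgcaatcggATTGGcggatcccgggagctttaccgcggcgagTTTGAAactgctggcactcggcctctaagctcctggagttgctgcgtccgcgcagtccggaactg
Members with and without a motif had similar medians. DNA replication genes with an E2F match had a median log2 fold change of 3.39 (12 of 13 called higher) and those without 3.17 (22 of 24), and mitotic genes with a CHR match had a median of 4.45 (28 of 29 called) and those without 4.66 (11 of 12). A match is a description of letters and does not show binding.

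Receptors for costimulation and checkpoint receptors moved in both directions. Of 25 tested, 7 were higher and 9 lower (8 of them also in the filtered fit), with a median of -0.50. Genes that peaked at 4 h included Tnfrsf9, 4-1BB, which fell from 1681 ± 275 to 343 ± 21.5 CPM (log2 fold change -2.31, SE 0.38, adjusted p = 4.33e-05), Cd69, an early activation marker, from 1622 ± 192 to 315 ± 22.0 CPM, Slamf1 from 766 ± 79.7 to 108 ± 7.14 CPM, and Cd274, PD-L1, from 551 ± 82.9 to 81.7 ± 1.9 CPM. Pdcd1, PD-1, fell from 471 ± 57.3 to 213 ± 14.9 CPM (log2 fold change -1.17, SE 0.39, adjusted p = 0.0145) and lost its call with library totals and without 4 h replicate 1. Other receptors came later. Cd226, a receptor for nectin-like ligands, had the highest fold change, at 6.54, 8.39, and 15.3 CPM at 4 h and 136, 134, and 124 CPM at 20 h (log2 fold change 3.67, SE 0.24, adjusted p = 4.34e-10). Lag3, a checkpoint receptor that binds MHC class II, stood at 4.91, 3.89, and 4.83 CPM at 4 h and 57.3, 52.5, and 23.5 CPM at 20 h (log2 fold change 3.26, SE 0.49, adjusted p = 1.67e-05). For both genes the 20 h libraries lay above all 4 h libraries. Tnfrsf4, OX40, rose from 221 ± 36.3 to 525 ± 30.8 CPM, Cd200 from 68.7 ± 4.63 to 320.4 ± 25.1 CPM, Ctla4 from 5.42 ± 3.75 to 16.1 ± 1.62 CPM, and Cd44, an activation and memory marker, from 57.2 ± 6.4 to 146 ± 10.2 CPM. Cd86, which is mainly known from antigen-presenting cells, had the lowest fold change, from 6.07 ± 0.0992 to 0.749 ± 0.199 CPM. Icos and the scavenger-type receptors Cd5 and Cd6 were not called, with log2 fold changes of 0.34 (SE 0.23), -0.44 (SE 0.16), and 0.14 (SE 0.14).

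Among 24 cytokine receptors and STAT-regulated feedback genes, 5 were higher and 9 lower, with a median of -0.81. Il7r, the receptor for the survival cytokine IL-7, had the largest fall, from 309.6, 369.8, and 751 CPM to 16.8, 16.4, and 36.5 CPM (log2 fold change -4.37, SE 0.33, adjusted p = 3.45e-09). It was at 576 ± 27.6 CPM at 0 h, and replicate 3 was the highest library at both times. Il6ra fell from 224 ± 63.5 to 38.4 ± 4.46 CPM, Ifngr1, a chain of the IFN-gamma receptor, from 262 ± 122 to 47.5 ± 0.44 CPM, and Il21r from 819 ± 109 to 285 ± 13.6 CPM. The common gamma chain gene Il2rg fell from 949 ± 160.4 to 368 ± 14.5 CPM (log2 fold change -1.39, SE 0.20, adjusted p = 7.48e-06), whereas Il2rb, which signals with it, rose from 218 ± 30.1 to 573 ± 30.7 CPM (log2 fold change 1.37, SE 0.29, adjusted p = 0.000481). Pim2, a STAT5-responsive kinase that supports growth, had the highest fold change, at 22.1, 20.8, and 34.7 CPM at 4 h and 533, 543, and 621 CPM at 20 h (log2 fold change 4.43, SE 0.34, adjusted p = 4.35e-09). Socs2 and Cish, which are induced by STAT5, rose from 1.42 ± 0.803 to 19.2 ± 2.76 CPM and from 93.4 ± 11.8 to 193 ± 5.8 CPM (Cish not without 4 h replicate 3, log2 fold change 0.97), and Il12rb1 from 1.57 ± 0.189 to 18.5 ± 3.1 CPM. Socs1, which restrains JAK kinases, and Pim1 fell, with log2 fold changes of -1.67 (SE 0.28) and -1.26 (SE 0.13).

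Homing receptors fell in 9 of 16 cases and rose in 2, with a median of -1.23. S1pr1, the receptor that guides exit from lymph nodes, stood at 344, 402, and 786 CPM at 4 h and 54.6, 55.4, and 57.7 CPM at 20 h (log2 fold change -3.21, SE 0.23, adjusted p = 1.55e-09). Its 4 h replicate 3 was the highest library, the times did not overlap, and the counts of the list without it were the same (2 higher, 9 lower). Cxcr4, the CXCL12 receptor, had the lowest fold change, from 104 ± 2.81 to 3.7 ± 0.501 CPM (log2 fold change -4.84, SE 0.34, adjusted p = 1.39e-09). Cxcr3 and Ccr8, receptors of effector and skin-homing cells, were transient: Cxcr3 stood at 3.75 ± 1.46, 70.9 ± 17.7, and 2.78 ± 0.586 CPM at 0 h, 4 h, and 20 h, and Ccr8 at 3.8 ± 0.343, 332 ± 128, and 27.6 ± 2.15 CPM. Ccr7, which brings naive T cells to the T cell zone, rose instead, with 524, 592, and 936 CPM at 4 h and 1322, 1366, and 1513 CPM at 20 h (log2 fold change 1.02, SE 0.18, adjusted p = 0.000124), and so did Ccr4, with 15.7, 22.6, and 9.2 CPM at 4 h and 55.5, 59.2, and 70.6 CPM at 20 h (log2 fold change 1.95, SE 0.30, adjusted p = 2.52e-05). Ccr7 lay close to a fold of 2 and lost its call, at log2 fold changes of 0.94 to 1.00, without 4 h replicate 1, 4 h replicate 2, or 20 h replicate 3, which left 1 member higher.

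Lineage and effector factors split as well, with 6 of 25 higher, 9 lower, and a median of -0.61. Bcl6, the repressor that directs follicular helper cells, fell from 266, 282, and 206 CPM to 7.02, 5.97, and 8.79 CPM (log2 fold change -5.13, SE 0.22, adjusted p = 3.65e-12). Tbx21, T-bet of Th1 cells, fell from 10.0, 7.42, and 11.7 CPM to 2.61, 2.4, and 3.31 CPM (log2 fold change -1.83, SE 0.64, adjusted p = 0.0196) but was not called with DESeq2 (adjusted p = 0.0656), Rora fell from 28.6 ± 4.49 to 2.71 ± 0.74 CPM, Maf from 10.6 ± 2.03 to 0.815 ± 0.346 CPM, and Prdm1, Blimp-1, from 4.79 ± 1.21 to 0.536 ± 0.252 CPM. Genes of cytotoxic granules did not move together. Prf1, perforin, fell from 54.4 ± 2.93 to 3.82 ± 1.08 CPM (log2 fold change -3.86, SE 0.21, adjusted p = 7.2e-11), while Gzmb, granzyme B, rose from 1.22, 0.962, and 0.679 CPM to 17.9, 16.8, and 28.5 CPM (log2 fold change 4.46, SE 0.73, adjusted p = 3.87e-05). Batf, an AP-1 factor of effector T cells, rose from 19.2 ± 3.77 to 56.8 ± 2.23 CPM. Irf4, a dose-sensitive factor of T cell expansion, remained high at 1821, 2119.6, and 1234 CPM at 4 h and 1018, 1028, and 1006 CPM at 20 h, and Irf8 at 202, 171, and 164 CPM at 4 h and 252, 261, and 247 CPM at 20 h, and neither was called. Gata3 and Foxp3 were not called either, with log2 fold changes of -0.90 (SE 0.12) and -0.24 (SE 0.29).

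Genes associated with quiescence fell further after 4 h. Of 21 tested, 11 were lower and 0 higher, with a median of -1.78. Klf2, which maintains quiescence and the expression of S1pr1, stood at 198, 192, and 607 CPM at 4 h and 46.1, 36.7, and 40.1 CPM at 20 h (log2 fold change -3.04, SE 0.32, adjusted p = 2.47e-07), the lowest fold change of the list. Tsc22d3, GILZ, stood at 101, 108, and 270.1 CPM at 4 h and 20.5, 17.7, and 21.3 CPM at 20 h (log2 fold change -3.03, SE 0.31, adjusted p = 1.71e-07), and Txnip, an inhibitor of glucose uptake, at 174, 264, and 578 CPM at 4 h and 52.5, 72.5, and 83.5 CPM at 20 h (log2 fold change -2.30, SE 0.32, adjusted p = 5.91e-06). The times did not overlap for any of the 3 genes, but 4 h replicate 3 held more than the other 4 h libraries for all of them, as for 15 of the 21 members. Without that library 11 members were again lower and 0 higher, with a median of -1.27. Satb1, a chromatin organizer of T cells, fell from 1028 ± 145 to 214 ± 20.9 CPM, Btg1 from 798 ± 84.0 to 215 ± 17.1 CPM, and Pik3ip1, an inhibitor of PI3 kinase, from 64.1 ± 35.3 to 14.0 ± 1.59 CPM. Factors of the naive T cell program had fallen by 4 h and moved little later. Tcf7, TCF-1, stood at 2070.5 ± 80.3, 729 ± 316, and 524 ± 25.6 CPM at 0 h, 4 h, and 20 h, and Lef1 at 760.3 ± 27.2, 389 ± 104, and 246 ± 11.0 CPM, and neither was called between 4 h and 20 h. Foxo1 and Bach2 were not called, with log2 fold changes of -0.71 (SE 0.15) and 0.19 (SE 0.19).

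The GIMAP family, small GTPases of lymphocyte survival encoded in 1 cluster, had 4 of 8 genes lower and 0 higher, with a median of -1.19. Gimap4 fell most, from 906, 1022, and 1032 CPM to 203, 229, and 179 CPM (log2 fold change -2.30, SE 0.13, adjusted p = 1.02e-10), and Gimap6, Gimap8, and Gimap3 were the other genes called. Its 4 h replicate 3 was the highest library, as for 7 of the 8 members.

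Components of TCR signaling were lower in 13 of 28 cases and higher in 0, with a median of -0.92 (Themis was called higher without 4 h replicate 3 and Ubash3a with library totals). Lat itself, the adaptor that is deleted in the mutant of this experiment, stood at 314, 351, and 262 CPM at 4 h and 97.3, 105, and 92.2 CPM at 20 h (log2 fold change -1.67, SE 0.22, adjusted p = 3.87e-06). Ptpn22, a phosphatase that limits Src family kinases, had the lowest fold change, at 1066, 1054, and 851 CPM at 4 h and 88.2, 89.6, and 101 CPM at 20 h (log2 fold change -3.43, SE 0.13, adjusted p = 2.23e-12). Ubash3b, another phosphatase, fell from 691 ± 108 to 91.4 ± 5.28 CPM, Cblb, an E3 ligase that limits signaling, from 679 ± 166 to 143 ± 27.1 CPM, and Lcp2, SLP-76, from 1832 ± 90.9 to 539 ± 40.2 CPM. These genes shared a peak at 4 h: the levels at 0 h were 175 ± 5.64 CPM for Ptpn22, 44.4 ± 10.9 CPM for Ubash3b, 174 ± 31.5 CPM for Cblb, and 449 ± 13.3 CPM for Lcp2. Zap70 fell from 1077 ± 150.2 to 508 ± 8.78 CPM and Fyn from 1153 ± 82.4 to 375 ± 18.9 CPM, and Zap70 lost its call with library totals and without 4 h replicate 1. Plcg1, Grb2, and Ptpn6 were not called and had log2 fold changes of -0.11 (SE 0.14), -0.03 (SE 0.10), and 0.10 (SE 0.18). Of the 12 T cell markers, Cd2, Cd3e, Cd247, and Trac were lower and none higher, with a median of -0.88. Cd2 fell most, from 796 ± 74.2 to 185 ± 35.7 CPM (log2 fold change -2.13, SE 0.17, adjusted p = 4.83e-09), whereas Cd4 had a log2 fold change of -0.06 (SE 0.13) and Thy1 of 0.35 (SE 0.18).

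Metabolic genes rose in part. Of 19 glycolytic genes, 8 were higher and 1 lower (2 without 4 h replicate 1, with Slc2a3 added), with a median of 0.85. Tpi1, triosephosphate isomerase, had the highest fold change, at 51.3, 39.2, and 43.4 CPM at 4 h and 772, 872, and 741 CPM at 20 h (log2 fold change 4.13, SE 0.27, adjusted p = 4.77e-10). Hk2, the inducible hexokinase, rose from 33.0 ± 11.0 to 127 ± 9.56 CPM (log2 fold change 1.93, SE 0.42, adjusted p = 0.00062), Eno1, enolase, from 73.9 ± 4.78 to 365 ± 23.3 CPM, and Pkm, pyruvate kinase, from 558 ± 36.9 to 1587 ± 50.2 CPM. Pfkfb3, which makes the activator of phosphofructokinase, was the gene called lower, from 223 ± 36.4 to 82.2 ± 3.22 CPM, and Slc2a1, the glucose transporter GLUT1, had a log2 fold change of -0.10 (SE 0.10). Gapdh was counted at only 7.05 ± 1.99 CPM at 4 h. It has many near-identical copies in the genome, as have genes of ribosomal proteins, and how reads shared among copies were counted is not given in the sources used here, so such values are uncertain. Among 16 genes of the hypoxia response, 5 were higher and 2 lower, with a median of 0.25. The highest fold change was that of Adm, adrenomedullin, at 0.14, 0.137, and 0.0377 CPM at 4 h and 0.77, 0.479, and 2.43 CPM at 20 h (not called without 20 h replicate 3, adjusted p = 0.101), and the lowest that of Ndrg1, from 123 ± 5.76 to 19.1 ± 1.35 CPM (log2 fold change -2.71, SE 0.12, adjusted p = 3.3e-12).

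Cholesterol synthesis had 11 of 25 genes higher and 0 lower, with a median of 0.90. Mvk, mevalonate kinase, rose most, with 6.4, 7.47, and 10.2 CPM at 4 h and 34.6, 40.9, and 40.8 CPM at 20 h (log2 fold change 2.25, SE 0.17, adjusted p = 3.78e-09), followed by Mvd and Dhcr7, with log2 fold changes of 2.24 (SE 0.18) and 2.24 (SE 0.14). Srebf2 was not called and had a log2 fold change of -0.51 (SE 0.12). In fatty acid synthesis, 7 of 14 genes were higher (6 also in the filtered fit) and 0 lower, with a median of 1.52. Over the 11 members averaging 10 counts or more the median was 0.51. The most abundant of the genes called higher was Scd2, a stearoyl-CoA desaturase, with 14.7, 22.9, and 21.8 CPM at 4 h and 125, 147, and 112 CPM at 20 h (log2 fold change 2.67, SE 0.22, adjusted p = 1.01e-08). Fads2 had the highest fold change, at 0.0467, 0, and 0.0377 CPM at 4 h and 2.27, 3.5, and 2.12 CPM at 20 h, but with at most 1 read in any 4 h library its fold is not given. Fasn, fatty acid synthase, stayed at 572, 640.3, and 369 CPM at 4 h and 523, 551, and 486 CPM at 20 h. Of 23 genes of amino acid and one-carbon metabolism, 8 were higher and 3 lower, with a median of 0.45. Over the 21 members averaging 10 counts or more the median was 0.009. Enzymes of serine synthesis rose. Phgdh, the entry enzyme, stood at 23.9, 21.9, and 17.5 CPM at 4 h and 140.5, 147, and 154 CPM at 20 h (log2 fold change 2.78, SE 0.25, adjusted p = 3.15e-08), Psph rose from 18.0 ± 2.73 to 88.1 ± 1.7 CPM, and Shmt2, mitochondrial serine hydroxymethyltransferase, from 347 ± 52.4 to 819 ± 37.0 CPM. Among transporters of amino acids, Slc7a1 and Slc3a2 were instead higher at 4 h. Slc7a1, for arginine, fell from 811 ± 267 to 275 ± 8.36 CPM (log2 fold change -1.58, SE 0.20, adjusted p = 2.66e-06), and Slc3a2, the CD98 heavy chain, from 607 ± 119.5 to 262 ± 20.6 CPM.

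Ribosome biogenesis had no call. All 36 genes were tested, 0 were higher and 0 lower (0 and 0 also in the filtered fit), and the median was -0.16. Members were above their level at 0 h by 4 h. Ncl, nucleolin, stood at 988 ± 83.6, 4269 ± 512, and 4018 ± 71.4 CPM at 0 h, 4 h, and 20 h, and Nop56, a box C/D ribonucleoprotein, at 105 ± 6.89, 351 ± 42.3, and 289.7 ± 8.87 CPM. Myc, which drives these genes, had 1261, 1244, and 975 CPM at 4 h and 599, 661, and 682 CPM at 20 h (log2 fold change -0.86, SE 0.16, adjusted p = 0.000191), under a fold of 2. At 4 h, replicate 3 was the lowest library for 34 of the 36 genes. Mitochondrial ribosome genes had 13 of 78 higher (16.7%, against 15.9% of genes averaging 10 counts or more) and 0 lower, with a median of 0.51. Mrpl34 rose most, from 22.3 ± 8.51 to 83.6 ± 2.2 CPM. With library totals as scaling 20 were higher. Respiratory chain genes had 2 of 78 higher, 3 lower, and a median of 0.48, with log2 fold changes of 1.61 (SE 0.13) for Sdhd of complex II, the highest, and -2.09 (SE 0.53) for Atp5l, the lowest called. With library totals 15 were higher, with the compared groups alone 5, with DESeq2 4, and without 4 h replicate 1 6, with Atp5s and Ndufa10 added in each. Proteasome genes had 1 of 47 higher (the assembly chaperone Psmg3), 0 lower, and a median of 0.33. Cytosolic ribosome genes had 0 of 83 higher and 11 lower (13.3%, against 16.3% of genes averaging 10 counts or more), with a median of -0.33. Rpl24 had the lowest value, at 0.935, 0.504, and 0.604 CPM at 4 h and 0.171, 0.0737, and 0.221 CPM at 20 h, so that its fold rests on few reads.

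Interferon-stimulated genes (51 tested) had 18 members lower and 3 higher, with a median of -0.71. At 4 h, replicate 3 was the highest library for 39 of 46 members averaging 10 counts or more. Without it 14 of these 46 were lower and 4 higher, against 17 and 3 with it, and the median was -0.41 instead of -0.72. Irf7, the factor that amplifies interferon responses, stood at 110.2 ± 15.0 CPM at 0 h and then at 11.8, 10.2, and 21.7 CPM at 4 h and 1.71, 1.36, and 1.68 CPM at 20 h (log2 fold change -3.23, SE 0.35, adjusted p = 3.03e-07). Isg15, a ubiquitin-like protein, fell from 5.84, 8.48, and 11.2 CPM to 1.11, 2.14, and 1.46 CPM (log2 fold change -2.45, SE 0.30, adjusted p = 1.59e-06), and Rsad2, viperin, had the lowest fold change at -4.14 (SE 0.64). Tap1 was not called (0.03, SE 0.17). The 3 genes that rose were guanylate-binding proteins, and with library totals, with the compared groups alone, or without 4 h replicate 1 Bst2 and Igtp were called too, which made 5. Gbp5 stood at 9.86, 8.75, and 15.9 CPM at 4 h and 104, 118, and 117 CPM at 20 h (log2 fold change 3.27, SE 0.46, adjusted p = 6.71e-06), Gbp2 at 63.7, 46.1, and 91.2 CPM at 4 h and 204, 259, and 252 CPM at 20 h (log2 fold change 1.81, SE 0.46, adjusted p = 0.00252), and Gbp3 rose from 8.63 ± 3.05 to 18.9 ± 1.56 CPM. Its relatives Gbp4 and Gbp6 were not called (-0.18, SE 0.35 and -0.85, SE 0.51), and Gbp7 fell (-1.36, SE 0.43). The interferon-stimulated response element, searched as GAAANNGAA on both strands, occurred in 19 of 34 promoters of the list (55.9%) and 7.28% of all. The promoter of Ifi208, a PYHIN family gene that fell from 31.2 ± 10.5 to 3.98 ± 1.19 CPM (log2 fold change -2.99, SE 0.23, adjusted p = 4.06e-09), is shown as that of the member with a match and the largest fall among those averaging 50 counts or more. It lies at chr1:173673415-173673714 on the plus strand of GRCm38.p6, and the capitals mark the match.
Ifi208: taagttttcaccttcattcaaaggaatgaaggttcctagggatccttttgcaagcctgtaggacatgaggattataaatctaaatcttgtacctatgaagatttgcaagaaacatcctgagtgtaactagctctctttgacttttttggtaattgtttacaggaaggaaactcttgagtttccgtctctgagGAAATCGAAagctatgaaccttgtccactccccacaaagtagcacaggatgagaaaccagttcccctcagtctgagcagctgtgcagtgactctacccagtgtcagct
Members with a match had a median log2 fold change of -0.72 (8 of 19 lower, 2 higher) and those without of -1.01 (8 of 15 lower, 0 higher).

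Survival genes of the BCL2 family had 2 of 16 higher and 6 lower (5 also in the filtered fit), with a median of -0.32. Bcl2l1, which encodes BCL-XL, rose from 106, 98.4, and 95.8 CPM to 543, 598, and 622 CPM (log2 fold change 2.53, SE 0.27, adjusted p = 2.94e-07). Bcl2 fell from 225 ± 32.9 to 105 ± 8.61 CPM (log2 fold change -1.12, SE 0.17, adjusted p = 2.2e-05), and Mcl1 and Bcl2l11, the killer BIM, were not called (-0.72, SE 0.12 and 0.01, SE 0.17). The A1 genes Bcl2a1b and Bcl2a1d fell, with log2 fold changes of -1.67 (SE 0.22) and -2.67 (SE 0.34), and share most of their sequence, as does Bcl2a1a, which had 0.234, 0.183, and 0.113 CPM at 4 h and no read at 20 h and was not called without any 1 of the 6 libraries (adjusted p = 0.0569 to 0.138). With library totals 2 members of the family were lower instead of 6, since the folds of Bcl2, Bbc3, and Pmaip1 fell below 2 and Bcl2a1a missed the adjusted p. Bcl2 also lost its call without 4 h replicate 1 or 4 h replicate 2, and Pmaip1 without 4 h replicate 3. Targets of p53 had 2 of 15 higher (Perp and Phlda3) and 3 lower, with a median of -0.42. Perp, which acts in p53-dependent death, rose from 0.406 ± 0.234 to 2.73 ± 0.456 CPM, and Trp53inp1 had the lowest fold change, from 494 ± 46.3 to 116 ± 18.5 CPM (log2 fold change -2.11, SE 0.19, adjusted p = 2.82e-08). Only 2 of 19 genes of the unfolded protein response were called. Sdf2l1, an endoplasmic reticulum chaperone component, rose from 38.5 ± 3.49 to 127 ± 3.68 CPM, Dnajb9, a cochaperone of BiP, fell from 62.8 ± 5.53 to 15.0 ± 0.654 CPM, and the median of the list was -0.05. Syvn1 was also called lower in the filtered fit and without 20 h replicate 3 (2 lower).

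The lowest fold changes among protein-coding genes averaging 50 counts or more were those of Hspa1a and Hspa1b, the inducible HSP70 genes, and they rested on 2 of the 3 libraries at 4 h. Hspa1a stood at 117, 77.6, and 2.87 CPM at 4 h and 0.3, 0.0369, and 0 CPM at 20 h (log2 fold change -9.18, SE 1.72, adjusted p = 0.000167). Hspa1b stood at 187, 114, and 5.36 CPM at 4 h and 0.342, 0.369, and 0.442 CPM at 20 h (log2 fold change -8.06, SE 1.50, adjusted p = 0.000162). At 4 h, replicate 3 was far below the other libraries for both genes, which are among 5 of 10111 genes averaging 50 counts or more for which it lay more than 4-fold below their mean. The same split was seen at 4 h in the sorted Lat-/- cells, at 471, 212, and 3.95 CPM for Hspa1a, while enriched WT cells had at most 0.958 CPM. Other heat shock genes followed the order of these libraries less strongly. Hsph1, HSP110, stood at 1310.3, 903, and 569 CPM at 4 h and 466, 467, and 536 CPM at 20 h, and Hspb1, HSP27, at 3.41, 2.11, and 0.226 CPM at 4 h and 0, 0.0737, and 0 CPM at 20 h. Dnajb1, the HSP40 partner of HSP70, stood at 268, 232, and 239.9 CPM at 4 h and 156, 159.9, and 162 CPM at 20 h, with no such split. Hsp90ab1 and Hspa8, constitutive chaperones, were not called (0.15, SE 0.37 and -0.04, SE 0.28), and Hspd1, the mitochondrial chaperonin, had 721, 614, and 407 CPM at 4 h and 922, 961, and 993 CPM at 20 h. Among the same 10111 genes, 4 h replicate 3 lay more than 4-fold above the other libraries' mean for 4: Gm15564, Lars2, Mir6236, and Gm23935. What set 4 h replicate 3 apart was not tested. The promoter of Hspa1a at chr17:34972107-34972406 on the minus strand is shown with its match to the heat shock element GAANNTTC in capitals (5.48% of all promoters hold one), and that of Hspa1b differs from it at 4 of 300 bases. Reads of the near-identical genes may not be told apart.
Hspa1a: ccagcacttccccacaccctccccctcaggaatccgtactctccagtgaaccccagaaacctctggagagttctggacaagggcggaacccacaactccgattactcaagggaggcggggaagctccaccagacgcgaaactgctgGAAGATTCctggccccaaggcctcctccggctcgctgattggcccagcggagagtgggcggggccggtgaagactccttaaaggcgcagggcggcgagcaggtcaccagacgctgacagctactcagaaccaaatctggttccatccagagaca

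Apart from the heat shock genes, most of the lowest fold changes were those of genes far above their 0 h level at 4 h. Ramp3, a partner of the calcitonin-like receptor, stood at 13.7 ± 1.04 CPM at 0 h and 324, 382, and 285 CPM at 4 h and 2.65, 3.54, and 4.46 CPM at 20 h (log2 fold change -6.56, SE 0.23, adjusted p = 1.19e-12). Sema7a, a membrane semaphorin, stood at 2.65 ± 0.726 CPM at 0 h and 1209, 1237, and 1025 CPM at 4 h and 16.1, 16.9, and 33.5 CPM at 20 h (log2 fold change -5.72, SE 0.47, adjusted p = 1.01e-08). Both were abundant in every 4 h library and low in every 20 h library. Areg, amphiregulin, fell from 9.56 ± 0.829 to 0.222 ± 0.105 CPM, Plaur, the urokinase receptor, from 149 ± 27.5 to 4.07 ± 0.333 CPM, and Flt1, a VEGF receptor, from 5.00 ± 1.7 to 0.122 ± 0.0323 CPM. Samd4, an RNA-binding repressor, fell from 10.2 ± 1.59 to 0.249 ± 0.0942 CPM, Dusp8, a phosphatase of stress kinases, from 5.43 ± 2.65 to 0.156 ± 0.0986 CPM, and Siah3, of the SIAH family of E3 ligases, from 5.37 ± 2.51 to 0.114 ± 0.0691 CPM. Qpct, glutaminyl cyclase, was at 10.3 ± 1.1 CPM at 0 h and 10.2 ± 1.59 CPM at 4 h before it fell to 0.294 ± 0.219 CPM. Cx3cr1, the fractalkine receptor, went from 7.06, 7.79, and 2.07 CPM to 0.0856, 0.0369, and 0.0442 CPM (log2 fold change -6.57, SE 0.81, adjusted p = 1.52e-06).

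Of the 15 protein-coding genes with the highest fold changes by the same rule, 5 are in the lists of DNA replication, mitosis, or G1 control. Clspn, claspin of the replication checkpoint, stood at 0, 0.0458, and 0.189 CPM at 4 h and 50.9, 49.9, and 37.9 CPM at 20 h (log2 fold change 8.97, SE 0.63, adjusted p = 1.19e-09). Kntc1, a kinetochore protein, rose from 0.172 ± 0.191 to 52.7 ± 7.54 CPM, Dtl, the substrate receptor that marks CDT1 for destruction, from 0.83 ± 0.196 to 179 ± 10.6 CPM, and Pclaf, a PCNA-binding factor, from 0.457 ± 0.319 to 106 ± 13.7 CPM. Aurkb, Aurora B kinase, rose from 0.269 ± 0.225 to 63.5 ± 5.06 CPM, Pbk, a mitotic kinase, from 0.17 ± 0.161 to 32.7 ± 3.14 CPM, Lrr1 from 0.097 ± 0.0842 to 19.1 ± 0.467 CPM, Aunip, a partner of Aurora A, from 0.0503 ± 0.0871 to 20.3 ± 1.69 CPM, and BC030867 from 0.0563 ± 0.0496 to 19.5 ± 2.03 CPM. Xkr5 and Serpinc1, antithrombin, had at most 2 reads in a 4 h library and 5.56, 5.01, and 3.84 CPM and 6.68, 8.44, and 8.57 CPM at 20 h, and no fold is given.

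Noncoding genes mostly fell. 1700016P03Rik stood at 9.58, 8.48, and 6.04 CPM at 4 h and 0.0428, 0.0737, and 0.0442 CPM at 20 h, Gm17322 at 39.2, 40.5, and 30.7 CPM at 4 h and 0.342, 0.221, and 0.309 CPM at 20 h, and Neat1, the scaffold of paraspeckles, at 49.3, 37.4, and 52.2 CPM at 4 h and 2.61, 3.24, and 3.23 CPM at 20 h (log2 fold change -3.95, SE 0.34, adjusted p = 1.53e-08). The times did not overlap for any of them, and the first pair had been near 0 in unstimulated cells (0.0247 ± 0.0215 and 0.0481 ± 0.0531 CPM), unlike Neat1 (34.3 ± 7.11 CPM). AC119228.1 and 6720427I07Rik fell with log2 changes of -4.59 (SE 0.71) and -4.52 (SE 0.59). Among genes with a long noncoding biotype in the annotation that rose, Gm13546 went from 4.01 ± 0.416 to 25.2 ± 1.7 CPM (log2 fold change 2.63, SE 0.21, adjusted p = 5.2e-09). 4933404O12Rik went from 3.46 ± 1.16 to 14.2 ± 1.8 CPM, and 2810408I11Rik and 5033430I15Rik had log2 fold changes of 5.46 (SE 0.77) and 2.08 (SE 0.49). Ifi30, at 1.94 (SE 0.20), is named here only for the biotype that the annotation gives it. Whether strand was used in counting is not given in the sources used here, so reads of noncoding genes that overlap another gene may belong to either.

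Genes were also ranked by the difference in mean CPM, which is relative to each library and not an amount per cell. The largest gain was that of Tubb5, a beta tubulin, with 614, 601, and 734 CPM at 4 h and 4152, 4337, and 3980.4 CPM at 20 h (log2 fold change 2.66, SE 0.15, adjusted p = 8.29e-11). Mcm3, Mcm5, Mcm6, Pkm, and Cd52, a lymphocyte surface glycoprotein (433 ± 114 to 1339 ± 118 CPM), followed among called genes. Other abundant genes had higher means without being called. Tmsb4x, thymosin beta 4, went from 2457 ± 333 to 3416 ± 136 CPM, Eif5a, a translation factor, from 1765 ± 152 to 2702 ± 175 CPM, Hsp90ab1 from 7198 ± 1364 to 8122 ± 113 CPM, and Eef2, an elongation factor, from 6317 ± 236 to 7208 ± 414 CPM. The largest loss was that of Nr4a1. Among the 10 largest losses, H2-K1, an MHC class I heavy chain, stood at 5917, 5565, and 5648 CPM at 4 h and 1560.0, 1641, and 1539 CPM at 20 h (log2 fold change -1.87, SE 0.16, adjusted p = 1.05e-08), B2m, the MHC class I light chain, at 5497, 5614, and 5227 CPM at 4 h and 1731, 1646, and 1648 CPM at 20 h (log2 fold change -1.72, SE 0.18, adjusted p = 1.52e-07), and H2-D1 at 3312, 3185, and 3089 CPM at 4 h and 1068, 1097, and 1025 CPM at 20 h (log2 fold change -1.61, SE 0.14, adjusted p = 1.99e-08). All 3 had 4 h values close to those at 0 h (5435 ± 1103, 4384 ± 1136, and 3316 ± 451 CPM). Srgn, serglycin of secretory granules, and Nr4a3 fell from 3679 ± 409 to 383 ± 32.9 CPM and 3492 ± 783 to 246 ± 38.0 CPM. Ptprc, the phosphatase CD45, fell from 4508 ± 852 to 1432 ± 162 CPM, and Vsir, the checkpoint receptor VISTA, from 3045 ± 424 to 347 ± 20.2 CPM. The mitochondrial transcripts mt-Cytb and mt-Co1 fell from 5589, 7248, and 2735 CPM to 1853, 1754, and 1612 CPM and from 6261, 8058, and 3102 CPM to 2778, 2538, and 2597 CPM, with 4 h replicate 3 below the other 4 h libraries. The call of mt-Co1 was lost with library totals (log2 fold change -0.92) and without 4 h replicate 2 (-0.77).

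Sorted Lat-/- cells, which came from the same mouse line, sort, and count table, were compared over the same interval. Lat had 7.92 ± 2.97 CPM at 4 h and 12.9 ± 3.78 CPM at 20 h in these cells, against 262 to 351 and 92.2 to 105 CPM in WT cells. They had 556 genes higher (2%) and 582 lower (2.1%) at 20 h than at 4 h, of which 447 and 454 were also called in the filtered fit. Among genes that rose in WT cells, 231 also rose in Lat-/- cells (10.5% of the WT list and 41.5% of the Lat-/- list), and 26 were lower. Among those that fell in WT cells, 339 also fell in Lat-/- cells (13.1% and 58.2%), and 96 were higher. The difference of the changes, WT minus Lat-/-, was above a fold of 2 for 1603 genes (5.77%) and below it for 1979 (7.12%), with 1445 and 1786 called in the filtered fit. Of the 1603 genes, 1285 were higher in WT cells and 1352 were not called in Lat-/- cells, and of the 1979, 1497 were lower in WT cells and 1710 not called in Lat-/- cells.

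**Figure D4:**
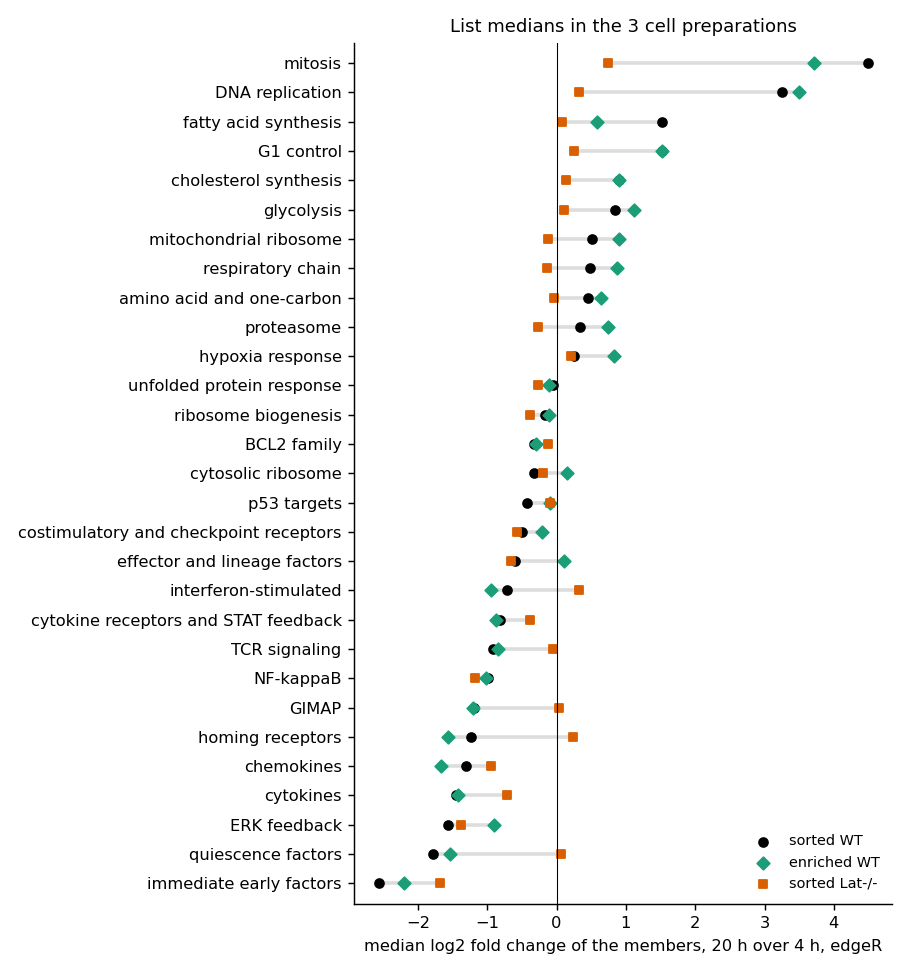
Median log2 fold change, 20 h over 4 h (x), of each gene list (y) in sorted WT, enriched WT, and sorted Lat-/- cells, each point a list in 1 kind of cell. The mitosis median was 4.49 in sorted WT, 3.72 in enriched WT, and 0.75 in Lat-/- cells, and the immediate early median was -2.56, -2.20, and -1.68.

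Of the DNA replication list 41 of 44 genes were above in the difference and 0 below, and of mitosis 46 of 52 were above and 0 below. In Lat-/- cells 13 and 16 genes of these lists rose, with medians of 0.32 and 0.75. Mcm3 stood at 84.8 ± 6.35 CPM at 4 h and 111 ± 38.1 CPM at 20 h in Lat-/- cells, a difference of changes of 3.45 (SE 0.24, adjusted p = 1.37e-08), and Cdk1 at 1.2 ± 0.469 CPM at 4 h and 2.77 ± 1.17 CPM at 20 h, a difference of 5.77 (SE 0.41, adjusted p = 1.46e-08). Quiescence factors had 11 of 21 genes below in the difference and a Lat-/- median of 0.07. Klf2 stood at 908 ± 97.1 CPM at 4 h and 932 ± 93.8 CPM at 20 h (difference -3.06, SE 0.43, adjusted p = 2.26e-05), and Il7r at 1564 ± 176 CPM at 4 h and 2057 ± 333 CPM at 20 h (difference -4.75, SE 0.43, adjusted p = 1.61e-07). Interferon-stimulated genes had 23 of 51 below and 2 above, and 6 rose and 1 fell in Lat-/- cells. Immediate early factors behaved otherwise, with 16 of 25 lower in Lat-/- cells and 5 above and 5 below in the difference. Nr4a1 stood at 1199 ± 175 CPM at 4 h and 53.1 ± 37.6 CPM at 20 h in Lat-/- cells, and the difference of its changes was 0.53 (SE 0.71, adjusted p = 0.585). Cd40lg stood at 159 ± 14.8 CPM at 4 h and 120.4 ± 18.1 CPM at 20 h (difference -3.07, SE 0.18, adjusted p = 3.03e-09).

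Some genes went opposite ways. App, the amyloid precursor, was at 22.7 ± 6.84 CPM at 4 h and 60.1 ± 8.97 CPM at 20 h in Lat-/- cells and at 15.7, 14.6, and 18.9 CPM at 4 h and 0.471, 1.11, and 1.63 CPM at 20 h in WT cells (difference -5.35, SE 0.38, adjusted p = 1.37e-08 for the difference). Car2, a carbonic anhydrase, was at 4.35 ± 0.845 CPM at 4 h and 10.5 ± 2.56 CPM at 20 h in Lat-/- cells and fell from 14.1 ± 1.99 to 0.976 ± 0.419 CPM in WT cells (difference -5.13, SE 0.38, adjusted p = 1.98e-08). Klrd1, the CD94 receptor chain, rose in Lat-/- cells and fell in WT cells (difference -4.78, SE 0.32, adjusted p = 7.36e-09), as did Cd7 (difference -4.47, SE 0.43, adjusted p = 3.84e-07). In the other direction, Cish was at 33.0 ± 3.18 CPM at 4 h and 5.31 ± 1.47 CPM at 20 h in Lat-/- cells while it rose in WT cells (difference 3.68, SE 0.28, adjusted p = 2.85e-08), and Gls2, a glutaminase, fell in Lat-/- and rose in WT cells (difference 5.45, SE 0.69, adjusted p = 7.74e-06). Drc1, a ciliary protein gene, had a difference of 6.13 (SE 0.59, adjusted p = 3.47e-07) and stood at 1.05 ± 0.555 CPM at 4 h and 0.635 ± 0.199 CPM at 20 h in Lat-/- cells. Among called genes averaging 50 counts or more over the 12 libraries of both genotypes, BC030867, E2f8, and Serpinc1 were with it among the 5 highest differences but had few reads at 4 h, and in Lat-/- cells they stood at 0.069 ± 0.119 CPM at 4 h and 0.161 ± 0.129 CPM at 20 h, 0.0889 ± 0.107 CPM at 4 h and 0.185 ± 0.278 CPM at 20 h, and 0.327 ± 0.233 CPM at 4 h and 0.567 ± 0.405 CPM at 20 h. Gm37881 was the other of these 5, as it had 6.03, 6.87, and 4.22 CPM at 4 h and 2.27, 1.66, and 2.25 CPM at 20 h in WT cells and 1.18 ± 0.856 CPM at 4 h and 0 ± 0 CPM at 20 h in Lat-/- cells. Among called genes averaging 50 counts or more over the 12 libraries of both genotypes, the lowest differences beside App and Car2 were those of Gm49492, Gm19705, and Gm9889, at -5.65 (SE 0.64, adjusted p = 2.15e-06), -5.30 (SE 0.69, adjusted p = 1.06e-05), and -5.28 (SE 0.60, adjusted p = 2.43e-06).

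Enriched WT cells, which share no library with the sorted cells, gave 2822 genes higher (8.74%) and 3943 lower (12.2%) of 32290, with 2670 and 3539 of them called in the filtered fit. Of the genes higher in sorted cells 1876 were higher in enriched cells (85.5% of the sorted list and 66.5% of the enriched list), and of those lower 2134 were lower (82.4% and 54.1%). Across 12306 genes the log2 fold changes of both sources had a Pearson's r of 0.925, a description over genes that are not independent. In enriched cells 44 of 44 DNA replication genes, 49 of 52 mitotic genes, and 0 of 25 immediate early genes (19 lower) were called higher.

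**Figure D5:**
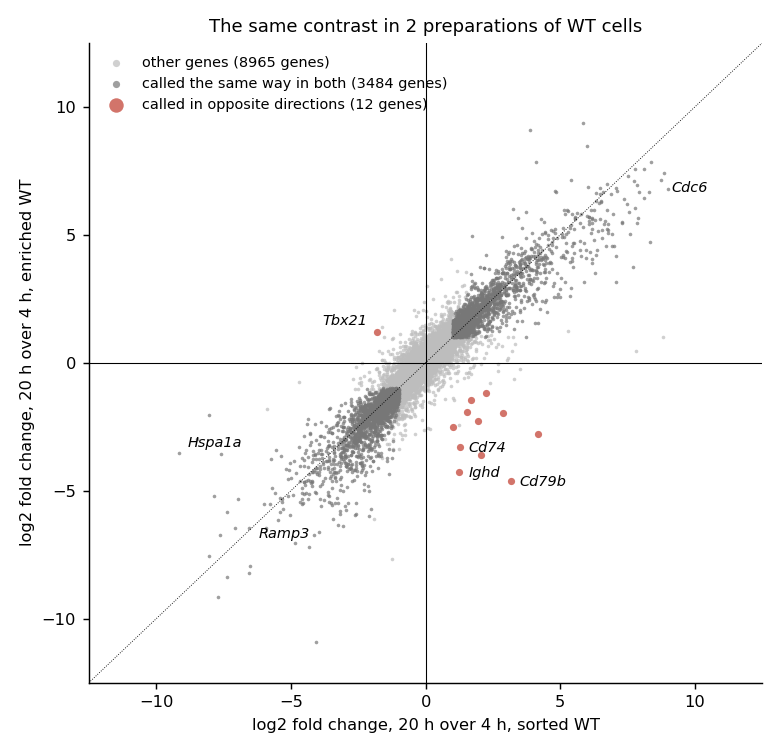
Log2 fold change, 20 h over 4 h, of sorted WT cells (x) against enriched WT cells (y), each point a gene averaging 10 counts or more and the dotted line equality. Of the genes drawn, 3484 were called in the same direction in both and 12 in opposite directions.

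The difference of the changes, sorted minus enriched, was above for 251 genes (0.91%) and below for 59 (0.214%) of 27588, but only 38 and 6 were called in the filtered fit, and DESeq2 called 160 and 32. The 2 sources differ in purification, mice, and count table, which cannot be told apart here. The 5 highest differences among called genes averaging 50 counts or more over the 12 libraries, Fcmr, Napsa, Iglc3, Scd1, and Cd79b, belonged to genes that were low in sorted cells and fell in enriched cells, and all but Iglc3 were called in the filtered fit. Fcmr, an IgM receptor of B cells, stood at 8.57 ± 6.1 CPM at 4 h and 0.181 ± 0.0359 CPM at 20 h, and Cd79b, a chain of the B cell receptor, at 41.9 ± 33.1 CPM at 4 h and 1.7 ± 0.31 CPM at 20 h in enriched cells against 0.421, 0.275, and 0.377 CPM at 4 h and 2.74, 3.72, and 3.23 CPM at 20 h in sorted cells. Napsa stood at 8.96 ± 6.75 CPM at 4 h and 0.072 ± 0.0597 CPM at 20 h, Iglc3, an immunoglobulin light chain constant region, at 6.65 ± 4.35 CPM at 4 h and 0.185 ± 0.179 CPM at 20 h, and Scd1 at 10.8 ± 6.22 CPM at 4 h and 1.03 ± 0.31 CPM at 20 h in enriched cells. The B cell list had 11 of 12 genes lower in enriched cells, where its sum went from 451 to 1332 CPM to 338 to 417 CPM, and the sum for red cells and platelets went from 1085 to 1999 CPM to 9.67 to 46.2 CPM. With the same limit the lowest differences were those of Hspa1b, Hspa1a, Il3, Tbx21, and Rpph1, none of which was called in the filtered fit. Il3 stood at 1.19 ± 0.364 CPM at 4 h and 5.07 ± 2.69 CPM at 20 h in enriched cells, and Rpph1, the RNA of RNase P, at 0.174 ± 0.0171 CPM at 4 h and 11.5 ± 5.93 CPM at 20 h against 0.701, 1.51, and 0.226 CPM at 4 h and 8.13, 7.22, and 7.69 CPM at 20 h in sorted cells. Tbx21 stood at 41.4 ± 20.8 CPM at 4 h and 94.1 ± 53.8 CPM at 20 h in enriched cells (difference -2.94, SE 0.65, adjusted p = 0.0977 for the difference). The 6 genes below in both fits were Cdkn1a, Phlda3, Rgs2, Crip2, Matn2, and P4ha2. Cdkn1a fell from 99.6 ± 3.71 to 23.9 ± 0.93 CPM in sorted cells and stood at 65.2 ± 6.83 CPM at 4 h and 41.8 ± 6.75 CPM at 20 h in enriched cells (difference -1.37, SE 0.18, adjusted p = 0.00504), and Phlda3, another p53 target, at 2.88 ± 0.44 CPM at 4 h and 32.0 ± 7.51 CPM at 20 h (difference -1.75, SE 0.25, adjusted p = 0.00817).

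Genes that fell tended to have longer 3' UTRs in the annotation (GENCODE M21, the longest per gene). The median length was 1190 bases over 10754 genes, 860 bases for genes called higher, and 1521 bases for genes called lower. The letters ATTTATTTA, a core of AU-rich elements that shorten the life of mRNA, occurred in 6.60% of all 3' UTRs, 4.79% of those called higher, and 8.13% of those called lower. In 3' UTRs under 500 bases these shares were 1.27%, 1.02%, and 1.53%, the last resting on 4 genes. From 500 to under 1000 bases they were 2.86%, 1.15%, and 5.49%. From 1000 to under 2000 bases they were 6.31%, 6.87%, and 7.88%. In 3' UTRs of 2000 bases or more the shares were 13.6%, 12.1%, and 12.4%. Genes called lower thus had the highest share in each class under 2000 bases but not above, and these differences were not tested. The short form ATTTA occurred at a median of 5.59 sites per kb in cytokine genes and 1.30 over all genes. In promoters, TATAAA occurred in 6.14% of all, 4.89% of genes called higher, and 9.45% of genes called lower, and in 4 of 15 immediate early promoters (26.7%).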

How the data were processed

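Per the labels and the study's methods, RNA was extracted with a column kit, libraries were made with a stranded mRNA kit and sequenced as single reads, bcl2fastq 2.17.1.14 made the reads, STAR aligned them to GRCm38 (mm10), and featureCounts counted them. The authors deposited raw read counts per gene in 2 tables, 1 for the sorted cells of the LAT experiment and 1 for the enriched cells, with 55385 genes each. Of these, 55144 identifiers matched GENCODE M21, from which names and biotypes were taken. The counting settings for strand and shared reads are not given in the sources used here.

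Counts were fitted with edgeR 4.0.16 (R 4.3.3) by the quasi-likelihood test with TMM factors, 1 fit per table over the groups of the LAT experiment or the enriched cells, and a fit over both tables for the difference between sorted and enriched cells. Genes with at least 1 read were tested, p-values were adjusted over all of them (Benjamini-Hochberg), and calls needed a fold over 2 at an adjusted p below 0.05. SEs are the log2 fold change divided by the square root of the F statistic. The prior df was infinite in the sorted table and in the fit over both tables. After edgeR's filterByExpr it was 6.46 and 5.09, which is why values of single genes come from the filtered fits. Alternatives were DESeq2 1.42.0, other scalings, an adjusted p alone, the groups compared alone, a replicate block, and leaving out each library; the filter for Lat-/- cells was added after the data were seen. The fits were tested on simulated data. Deviations of same-numbered enriched libraries had r of 0.118 to 0.567 across genes, and those of differently numbered libraries -0.464 to 0.392. Not every library correlated best with its own number, so these values do not settle whether the numbers pair them. The enriched results given above come from the fit without a block (2822 genes higher and 3943 lower), and the blocked fit gave 2869 higher and 4049 lower there.

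The gene lists (29, with 7 marker lists) and the members of each were chosen with earlier results of these data known. Genes were named as the 15 protein-coding genes per direction with the largest fold change among called genes averaging 50 counts or more and with 1 direction in every replicate number, the same for 5 noncoding genes, the 10 largest gains and losses in CPM, the largest 5 differences per direction, Lat, and members of the lists. Promoter sequences are from RefSeq (GRCm38.p6). Some members of the lists are counted but not reported here by name.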

Additional observations from a re-analysis of the deposited data

Results flagged for a closer look

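The change from 4 h to 20 h differed between sorted WT and Lat-/- cells for 1603 genes above and 1979 below (edgeR, test of the difference of changes). A total of 122 genes were called in opposite directions in the 2 genotypes (94 of them also in the filtered fit), among them App, Car2, Klrd1, Cd7, and H2-Ob, which were lower in WT and higher in Lat-/- cells at 20 h, and Cish, Dusp14, Ccr4, Scd2, and Gls2, which were the reverse.

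Between sorted and enriched WT cells the change was called different for 251 genes above and 59 below, of which only 38 and 6 were called in the filtered fit. A total of 22 genes were called in opposite directions (16 of them also in the filtered fit). Of these 22, 3 are in the B cell marker list, and 21, among them Cd79b, Cd74, Ighd, and Fcmr, were higher at 20 h in sorted cells and lower in enriched cells. The calls of Fcmr and Ighd in sorted cells were each lost in 4 of the 6 fits without 1 library. Tbx21 was the only one of the 22 that was lower in sorted and higher in enriched cells, and it was not called in opposite directions in the filtered fit. The part of B cells in these values was not tested.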

How the results depend on the processing

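Counts of genes called in sorted WT cells (2195 higher, 2589 lower) stayed within 1.5 times under DESeq2, both other scalings, the filter, and the replicate block (2183 and 2516), and moved with an adjusted p alone to 3709 and 4486. With an adjusted p alone, the difference to Lat-/- cells held 2463 genes above and 2973 below, enriched cells 4461 higher, and the difference to enriched cells 144 below. That last difference, 251 above and 59 below, was 160 and 32 with DESeq2 and 38 and 6 with filterByExpr. Of the 251 and 59 genes, 238 and 59 were tested with filterByExpr. Without the filter this fit had an infinite prior df, so that a gene's own spread did not enter, and with it 5.09. The cause of the drop was not tested. Leaving out 1 library at a time gave 2005 to 2296 higher and 2227 to 2392 lower in sorted WT cells, 1410 to 1812 above and 1756 to 2096 below against Lat-/- cells, 2565 to 2834 higher and 3378 to 3922 lower in enriched cells, and 195 to 410 above and 41 to 87 below between the sources, where the 410 came without enriched WT 20 h replicate 1. Same-numbered sorted WT libraries did not deviate together (r -0.05 to 0.00), and not every library correlated best with its own number. No paired analysis was possible between sorted and enriched cells because they share no mice.

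Of 431 members of the lists and genes named by rule that were called, 16 lost their call with DESeq2 (6 gained one, and 428 of the 431 had an adjusted p), 5 with filterByExpr (6, with 426 tested), 27 with library totals (34), 4 with RLE factors (6), 7 with the compared groups alone (16), and 6 with the block (3). Leaving out 1 library ended 8 to 17 calls and added 1 to 16. In all 36 genes lost their call in at least 1 of these fits, 19 of which had a fold under 2.5. Among genes with a call the sign turned only for Lyz2, a myeloid marker at few reads, whose log2 fold change was -5.70 to 2.62 without 1 library, the latter without 4 h replicate 3 and not called. Counts in gene lists stayed within 1.5 times in 870 cases and moved in 66, of which 31 came from an adjusted p alone. Genes near the floor of 3 counts are limited by depth.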
